A study of Rattus norvegicus with 24 samples.

Results

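The comparison described here set Gel against Sham in the areas labelled Segment 2 of day 7 skin wounds. Its members were the 4 Segment 2 areas of Gel wounds and the 4 Segment 2 areas of Sham wounds, 8 of the 24 areas in the series, taken by treatment and segment label. All wounds, Sham included, were splinted full-thickness skin defects of 8 mm in male Sprague-Dawley rats (SD in the labels) given streptozotocin at the age of 5 weeks to induce diabetes. Gel wounds received a hydrogel. Sham wounds carry no gel in their label, and the labels do not say what they received in its place. The third treatment, CuNZ@Gel, a hydrogel whose name carries CuNZ and whose composition the labels do not give, entered only the estimate of spread. Each group held 2 numbered specimens with 2 regions each. Whether each number stands for a separate animal is not stated, so the p-values measure the spread between these specimens, which may be technical. RNA was read by GeoMx digital spatial profiling, in which indexed probes bound to a tissue section are released by light from a chosen area and counted. Neither the fluorescent markers that defined the areas nor the meaning of the 2 segments is named in the labels, and the region name "mac" is left unexplained there.

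At this stage a healing wound is filled with granulation tissue, a mixture of macrophages, new vessels and fibroblasts. Activated fibroblasts, the myofibroblasts, assemble smooth muscle actin and its partners, pull the wound together and lay down collagen, fibronectin and other matrix. Macrophages clear debris, make complement proteins and present antigen on MHC class II, and the share of each cell type sets much of what a probe count from an area shows.

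The 4 Sham areas held 118812, 156189, 160735 and 183292 recovered counts, and the 4 Gel areas held 213093, 688507, 165946 and 139680. The deposited values had about the same 75th percentile in every area, the mark of Q3 scaling, and none was 0. The lowest value equalled 1 count, and this floor lay at 2.04 to 3.07 in Sham areas and 0.423 to 2.04 in Gel areas. Between 30.47% and 46.4% of targets stood at 1 count in Sham areas, against 0.11% to 30.54% in Gel areas, so low targets had different floors in the 2 groups. Odorant and vomeronasal receptors (1116 targets), taken as genes with little or no expression in skin, served as background: the level that 99% of them did not exceed lay at 14.3 to 16.4 in these areas. Their median was less even, at 3.07, 2.45, 4.09 and 4.09 in Sham areas and 5.45, 6.77, 4.09 and 4.09 in Gel areas. Both areas of Gel specimen 1 thus had a higher low-end background than any Sham area. The keratinocyte list had 0 of 15 targets with a mean above background, the neutrophil list 0 of 12 and the mast cell list 0 of 8, whereas the macrophage core list had 8 of 20. Gel specimen 2 region 2 was the Gel area least like the others, with a median rank correlation of 0.75 to them against 0.81 to 0.83 for the rest.

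Between Gel and Sham, 312 of 19125 targets were called (1.63%) by limma with Benjamini-Hochberg adjustment over all targets tested, at an adjusted p under 0.05. Of these, 49 rose (0.256%) and 263 fell (1.38%), and 60 changed by at least 2 log2 units, 13 upward and 47 downward. Among the 3794 targets with a mean above background, 262 were called (6.91%), 21 of them higher (0.554%) and 241 lower (6.35%). The counts given below for gene lists are to be read beside both sets of shares. In 35 of these 3794 targets (0.923%) all 4 Gel areas lay above all 4 Sham areas, and in 466 (12.3%) all lay below. The largest rises and falls named below were picked by a rule that required separate areas. A lack of overlap given for them was thus set by that rule and is no added support. The split between directions depended on the scaling. With quantile normalization 120 targets were higher and 150 lower (44.4% higher, against 15.7%), and with centring on the median of targets above background 107 were higher and 178 lower (37.5%). In the other direction, subtracting the odorant receptor median gave 20 higher and 205 lower (8.89%), thinning to the lowest total 15 and 171 (8.06%) and DESeq2 8 and 116 (6.45%). The median change of the 3794 targets was -0.27 on the log2 scale, and 0.01 after quantile normalization, so the falls below are to be read against that shift. Of the 49 higher calls 26 were below background in all 4 Sham areas and 3 were above it in no area, and 3 were odorant receptors. Of the 263 lower calls 247 were above background in all 4 Sham areas and 36 were below it in all 4 Gel areas.

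The p-values rest on a spread pooled over targets, because limma set it as fully shared for 98.7% of them and the own estimate of each target had 3 degrees of freedom. Of the 312 called targets 188 had an own SD above the SD used. With the own spread of each target alone, limma called 0 targets, with 1591 at an unadjusted p under 0.05, so no call here holds without pooling. Standard errors (SE) below are those of the spread limma used. With areas as samples and the specimen as a random block, 9 of the 79 named calls were lost: Fth1, C1qb, C1qc, Arg1, Spp1, Plod2, Mmp13, Fabp4 and Col15a1.

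**Figure D1:**
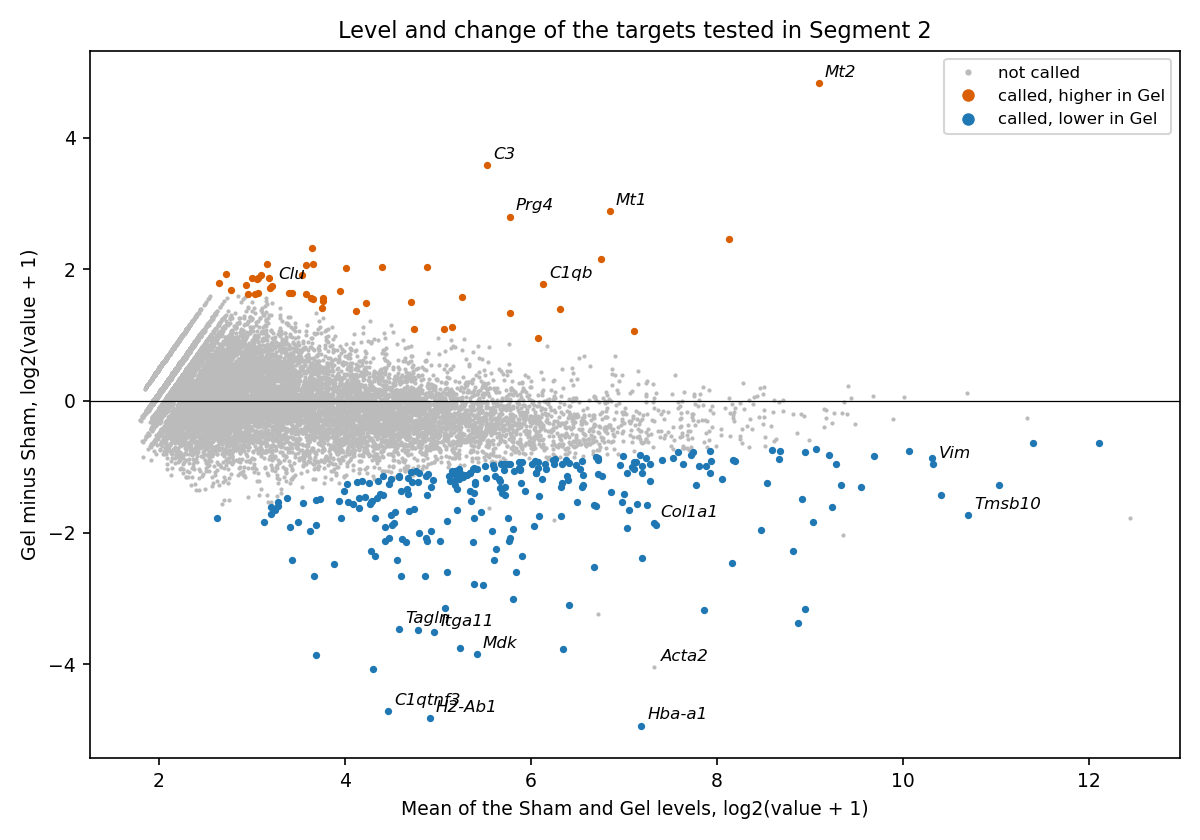
Each point is 1 of the 19125 targets tested, with the mean of its Sham and Gel levels on the horizontal axis and the Gel minus Sham difference on the vertical axis, both as log2(value + 1); orange points were called higher and blue points lower. Of the 263 lower calls 241 have a mean above background, against 21 of the 49 higher calls, and Mt2 (4.83) and Hba-a1 (-4.93) are marked.

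The largest fitted rise was in the metallothioneins, small cysteine-rich proteins that bind zinc and copper and whose genes are switched on by metals and by glucocorticoids. Mt2 read 61.3, 101, 131 and 133 in the 4 Sham areas and 3980, 3650, 2600 and 1920 in the 4 Gel areas. The lowest Gel area thus lay far above the highest Sham area, and specimen means were 106 ± 36.0 and 3040 ± 1100 (SD, n = 2). Mt2 rose by 4.83 on the log2 scale (SE 0.21, limma adjusted p = 2.9e-111). Mt1 read 46.0, 51.5, 32.7 and 38.8 in Sham and 467, 426, 278 and 172 in Gel, again with no overlap, and rose by 2.88 (SE 0.26, adjusted p = 3.8e-26). In both genes the areas of Gel specimen 1 were higher than those of Gel specimen 2. The call for Mt1 was kept in all 24 alternatives that pooled the spread, and that for Mt2 was lost in 1, quantile normalization, where limma's adjusted p was 0.22. The other members of the list, the metal sensor Mtf1 and zinc transporters among them, gave 0 further calls in 15 targets tested. Mtf1, the factor that binds metal response elements, read 33.7, 22.1, 28.6 and 12.3 in Sham and 23.2, 22.4, 24.5 and 12.3 in Gel, with a difference of -0.18 (SE 0.35, adjusted p = 0.935). The transporter Slc39a14 read 159 to 251 in Sham and 96.1 to 276 in Gel, overlapping widely.

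The 2 called metallothionein genes lie side by side on rat chromosome 19, and their promoters are shown because the genes moved together. The windows run from 250 bases before to 50 after the annotated start, written 5′ to 3′ on the minus strand, from RefSeq's GRCr8 assembly. The target Mt2 was matched to the rat gene Mt2A through its synonym. Capitals mark the cores of metal response elements, searched as TGCACNC and TGCGCNC on both strands.
Mt1, chr19:10832926-10833225: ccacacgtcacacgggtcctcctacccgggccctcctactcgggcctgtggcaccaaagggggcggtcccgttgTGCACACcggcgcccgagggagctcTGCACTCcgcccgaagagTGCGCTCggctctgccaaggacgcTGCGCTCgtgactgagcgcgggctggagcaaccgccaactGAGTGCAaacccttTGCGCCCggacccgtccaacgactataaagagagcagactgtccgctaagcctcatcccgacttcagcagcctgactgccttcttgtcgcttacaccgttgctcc
Mt2A, chr19:10838659-10838958: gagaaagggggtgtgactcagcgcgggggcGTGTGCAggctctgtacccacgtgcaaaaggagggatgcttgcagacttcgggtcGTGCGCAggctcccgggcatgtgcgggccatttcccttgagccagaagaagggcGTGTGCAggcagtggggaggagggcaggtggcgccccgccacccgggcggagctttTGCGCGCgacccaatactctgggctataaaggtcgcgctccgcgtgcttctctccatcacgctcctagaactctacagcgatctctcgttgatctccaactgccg
The Mt1 window held 6 cores and the Mt2A window 4, none of which overlapped. At least 1 core stood in 24.2% of the 33469 promoter windows of that length, and at least 4 cores in 147 of them (0.439%). A match is a description of the letters and not a measured binding site.

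**Figure D2:**
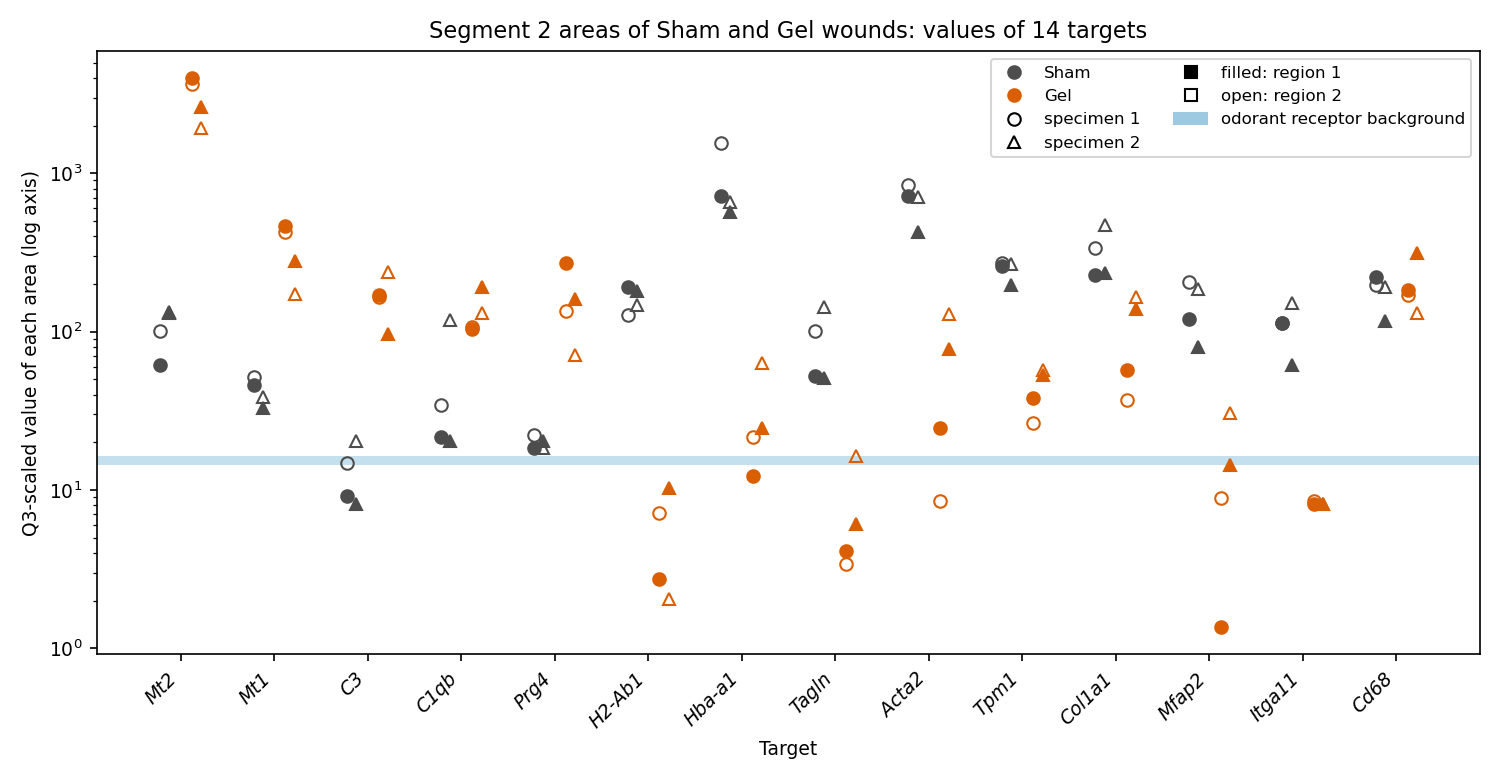
Q3-scaled values on a log axis of 14 targets in the 8 Segment 2 areas; grey marks are Sham and orange Gel, circles specimen 1 and triangles specimen 2, filled region 1 and open region 2, and the blue band is the odorant receptor background. Mt2, Mt1, C3 and Prg4 lie higher in all 4 Gel areas, H2-Ab1 through Itga11 lie lower in all 4, and C1qb and Cd68 overlap between the groups.

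Complement was the list with the most rises: 5 of 20 targets tested (C3, C1qb, C1qc, Cfb and Clu) and 0 falls. Over the alternatives that pooled the spread the list gave 1 to 6 rises. The median change was 1.07 over the 5 members with a mean above background, against -0.27 over all 3794 such targets. Cfb and Clu were not among those 5 members. The median ran from 0.63 to 1.52 over the alternatives, and the number of rises went to 2 without Sham specimen 1 and to 3 without Sham specimen 2, without Gel specimen 1 or without Gel specimen 2 region 2. C3, the central protein that all complement pathways cleave, read 9.20, 14.7, 8.18 and 20.4 in Sham, where only 1 area was above background, and 169, 165, 96.1 and 237 in Gel. It rose by 3.58 (SE 0.27, limma adjusted p = 8.4e-37), with no overlap of areas, and the call was kept in all 24 alternatives that pooled the spread. C1qb, a chain of the recognition molecule C1q that macrophages make, read 21.5, 34.3, 20.4 and 119 in Sham and 104, 107, 190 and 131 in Gel. Sham specimen 2 region 2 reached the Gel range, and the log2 change was 1.78 (SE 0.31, adjusted p = 3.2e-06). That call was lost in 4 of the 24 alternatives: areas as samples (adjusted p = 0.278), the same with the specimen as a random block (0.205), DESeq2 (0.242) and limma without trend and robust settings (0.067). C1qc followed with 82.8, 78.5, 40.9 and 298 against 149, 163, 260 and 256, in which the same Sham area was the highest of all 8. Its change of 1.07 (adjusted p = 0.00087) went to 0.85 (0.367) without Sham specimen 1, to 0.71 (0.227) without Gel specimen 2 and to 1.08 (0.0553) without Gel specimen 2 region 2. In total the C1qc call was lost in 9 of the 24 alternatives. Among these were edgeR (0.66, adjusted p = 0.528), DESeq2 (0.63, 0.371) and limma without trend and robust settings (1.07, 0.447). The third chain, C1qa, was not called, at 18.4 to 65.4 in Sham and 49.1 to 63.4 in Gel (0.66, SE 0.29, limma adjusted p = 0.388). Cfb, the alternative pathway protease, was below background in all Sham areas and read 8.18 to 22.5 in Gel; its change of 1.87 lost the call without Sham specimen 1 (1.90, adjusted p = 0.0555), Sham specimen 2 (1.83, 0.0628) or Gel specimen 1 (1.62, 0.356). With the odorant receptor median subtracted, Cfb was not called either (2.73, limma adjusted p = 0.109). C6, a part of the membrane attack complex outside that list, read 4.09 to 26.6 in Sham and 32.7 to 51.1 in Gel and rose by 2.03 (SE 0.33, adjusted p = 2.6e-07), a call kept in all 24 alternatives.

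The general macrophage markers, set beside this, gave 0 calls by limma in 20 targets tested (0 at an unadjusted p under 0.05, and 0 by edgeR and by DESeq2), with a median change of 0.07 over the 8 above background. Cd68, a lysosomal glycoprotein of macrophages, read 221, 196, 117 and 190 in Sham and 184, 170, 313 and 131 in Gel, a difference of 0.10 (SE 0.23, adjusted p = 0.946) whose sign turned without Sham specimen 2 (-0.14). Csf1r, the receptor for the macrophage growth factor, read 98.1 to 159 in Sham and 66.8 to 151 in Gel, and Lyz2 123 to 188 and 123 to 253. The summed value of the list was 1120 to 1370 in Sham areas and 1130 to 1820 in Gel areas, so the groups overlapped. The inflammatory macrophage list also gave 0 calls by limma in 20 targets tested (1 at an unadjusted p under 0.05, 0 by edgeR and DESeq2), and Il1b was above background in no area. The mannose receptor Mrc1 read 24.5 to 49.1 in Sham and 24.5 to 87.9 in Gel (0.59, SE 0.30, adjusted p = 0.52), and was called in 1 alternative, quantile normalization (0.94, 0.0382).

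Among single genes that macrophages express, the areas of Ms4a4a and Spp1 did not overlap between the groups, while those of Arg1, Apoe and F13a1 did. The repair macrophage list gave 1 rise and 1 fall in 17 targets, and the lysosome and lipid-associated list 1 and 1 in 20. Ms4a4a, a membrane protein of the tetraspanning Ms4a family found on macrophages, read 39.9, 73.6, 47.0 and 38.8 in Sham and 1.36, 5.07, 2.04 and 2.04 in Gel. It fell by 3.85 on the log2 scale (SE 0.39, adjusted p = 1.4e-20), and because all 4 Gel areas were below background, the Sham level is best given as at least 3.0-fold above that background. Spp1, the secreted matrix protein osteopontin, read 202, 167, 92.0 and 12.3 in Sham and 2.73, 2.96, 6.13 and 4.09 in Gel, a change of -4.07 (SE 0.38, adjusted p = 6.9e-22). Its own SD of 1.09 was above the 0.376 used, and the call was lost when areas were taken as samples, with and without the specimen as a random block. Arg1, the arginase of repair macrophages, read 261, 297, 133 and 94.0 in Sham and 36.8, 94.7, 256 and 12.3 in Gel, which overlapped. It was called lower, but lost the call in 7 of the 24 alternatives. Among these were edgeR (-0.93, adjusted p = 0.147), DESeq2 (-0.95, 0.376) and limma without trend and robust settings (-1.58, 0.152). Its change of -1.58 (adjusted p = 2.9e-07) went to -0.93 (0.348) without Sham specimen 1 and to -0.51 (0.765) without Gel specimen 2 region 2. Apoe, a lipid carrier made by lipid-laden macrophages, read 12.3 to 51.1 in Sham and 49.1 to 94.0 in Gel and was called higher (1.58, SE 0.29, adjusted p = 1.1e-05), a call lost without Gel specimen 1 (1.17, 0.121). Apoe also lost the call with DESeq2 (1.27, adjusted p = 0.0778) and with limma without trend and robust settings (1.58, 0.118). F13a1, the clotting factor subunit carried by tissue macrophages, was below background in all Sham areas and read 19.1, 67.7, 36.8 and 4.09 in Gel. With the odorant receptor median subtracted, F13a1 was not called (2.61, limma adjusted p = 0.0942). Its change of 1.92 (adjusted p = 0.00116) lost the call without Gel specimen 1 (1.21, 0.655) or without Gel specimen 1 region 2, the area with the most counts (1.48, 0.0935).

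Of the MHC class II list, 1 of 10 targets fell and 0 rose. H2-Ab1, the beta chain of a class II molecule, read 190, 128, 180 and 147 in Sham and 2.73, 7.19, 10.2 and 2.04 in Gel, below background in all 4 Gel areas. The change was -4.82 (SE 0.37, limma adjusted p = 2.5e-35), the Sham level was at least 9.8-fold above the Gel areas' background, and the call was kept in all 24 alternatives that pooled the spread. The 2 other members above background were not called. H2-Eb1, the beta chain of the other class II molecule, read 107, 76.0, 131 and 133 in Sham and 112, 62.2, 262 and 237 in Gel (0.40, SE 0.25, adjusted p = 0.66). Cd74, the invariant chain that escorts class II molecules, read 82.8, 56.4, 100 and 65.4 in Sham and 109, 53.7, 200 and 174 in Gel (0.68, SE 0.25, adjusted p = 0.229). In both, the 2 areas of Gel specimen 2 were the highest of the 8. Cd74 was called higher in 4 of the 24 alternatives, at 1.06 (1.6e-05) with quantile normalization, 0.91 (0.00189) with median centring, 1.31 (0.00104) without Gel specimen 1 and 0.93 (0.0147) without Gel specimen 1 region 2. Each target was read as 1 value under a symbol of mouse style, and whether its probe reads the rat transcript equally in all animals was not tested.

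Of 8 erythroid targets 2 fell and 0 rose. Hba-a1, an alpha chain of haemoglobin, read 721, 1560, 568 and 654 in Sham and 12.3, 21.6, 24.5 and 63.4 in Gel (-4.93, SE 0.26, limma adjusted p = 8.4e-73), a call kept in all 24 alternatives. Hbb-b2, a beta chain, read 27.6, 41.7, 14.3 and 18.4 against 4.09, 3.38, 4.09 and 12.3. It also fell (-1.98, SE 0.46, adjusted p = 0.00211), a call lost without Sham specimen 1 (-1.47, 0.432) or Gel specimen 1 (-1.58, 0.269). Alas2, the haem-making enzyme of red cell precursors, was above background in no area. Iron genes split, with 1 rise and 3 falls in 15 targets. Trf, the iron carrier transferrin, read 58.3, 41.7, 38.8 and 67.5 in Sham and 233, 358, 256 and 125 in Gel and rose by 2.15 (SE 0.25, adjusted p = 1.7e-14), with no overlap and in all 24 alternatives. The ferritin light chain Ftl1 (-0.88, adjusted p = 0.006), the iron sensor Ireb2 (-0.96, 0.0286) and the ferritin heavy chain Fth1 (-0.64, 0.0371) were called lower, by less than 1 log2 unit. These 3 calls were lost in 6, 9 and 16 of the 24 alternatives, and the sign of Fth1 turned with quantile normalization (0.09). Without Gel specimen 2 region 2 the changes were -0.67 (0.562) for Ftl1, -0.91 (0.247) for Ireb2 and -0.27 (0.897) for Fth1, and without Sham specimen 1 they were -0.73 (0.538), -0.94 (0.343) and -0.31 (0.836). Without Sham specimen 2 they were -1.03 (0.0772), -0.98 (0.232) and -0.97 (0.0792). Ireb2 also lost the call without Gel specimen 1 (-0.94, 0.198) or Gel specimen 2 (-0.98, 0.0874), as did Fth1 without Gel specimen 2 (-0.32, 0.526).

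Of 14 myofibroblast contractile targets 5 were called lower (Tpm2, Tagln, Tpm1, Actn1 and Cald1) and 0 higher, with a median change of -0.61 over all 14. The share called lower was 1.38% over all targets tested and 6.35% over those with a mean above background. All 7 members with a mean above background were lower in Gel, with a median change of -2.52 against -0.27 over all 3794 such targets, and the median ran from -2.90 to -2.09 over the alternatives. Tagln, an actin-bundling protein of smooth muscle and myofibroblasts, read 52.1, 101, 51.1 and 143 in Sham and 4.09, 3.38, 6.13 and 16.4 in Gel, where 0 of 4 areas were above background. It fell by 3.46 (SE 0.32, limma adjusted p = 5.7e-25), a Sham level at least 4.9-fold above the Gel areas' background. Tpm1, a tropomyosin that lies along actin filaments, read 258, 270, 196 and 266 in Sham and 38.2, 26.6, 53.1 and 57.2 in Gel and fell by 2.52 (SE 0.25, adjusted p = 9.9e-21). The related Tpm2 read 322, 223, 206 and 256 against 15, 15.6, 75.6 and 34.7 and fell by 3.09 (SE 0.25, adjusted p = 7.5e-30). Actn1, the actin crosslinker alpha-actinin, read 113, 162, 87.9 and 87.9 against 21.8, 23.3, 32.7 and 34.7 and fell by 1.95 (SE 0.27, adjusted p = 1.6e-10). In all 4 genes the lowest Sham area lay above the highest Gel area. The calls for Tagln, Tpm1 and Actn1 were kept in all 24 alternatives and that for Tpm2 in 23, its loss coming with the odorant receptor median subtracted (adjusted p = 0.387).

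Acta2, smooth muscle actin and the usual marker of myofibroblasts, was not called although its areas did not overlap. It read 714, 836, 425 and 709 in Sham and 24.5, 8.46, 77.7 and 129 in Gel, a difference of -4.04 on the log2 scale (SE 1.12, limma adjusted p = 0.479). The Gel areas alone ranged widely, both areas of specimen 1 lying below both of specimen 2, and limma kept the own SD of 1.12 for this target. In 9 of the 24 alternatives the difference was called, among them edgeR on the recovered counts (-3.69, adjusted p = 1.6e-15) and DESeq2 (-3.56, 0.0344). Leaving out Gel specimen 1 gave -2.69 (5.5e-29), leaving out Gel specimen 2 gave -5.39 (1.1e-106) and leaving out Gel specimen 2 region 2 gave -4.22 (3.3e-26). The smooth muscle markers Myl9, Des and Myh11 were above background in no area of either group. In an area of mixed tissue, fewer cells of a type and less RNA per cell cannot be told apart, and this holds for all groups of genes given here.

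Fibrillar and associated collagens were lower in Gel: 7 of 18 targets were called lower (Col12a1, Col5a1, Col14a1, Col1a1, Col11a1, Col6a3 and Col15a1) and 0 higher, against 1.38% called lower of all targets tested and 6.35% of those above background. Over the 12 members above background the median was -1.80. The median went to -0.94 without Gel specimen 1 and to -2.51 without Gel specimen 2. Col12a1, a collagen that sits on the surface of collagen fibrils, read 1430, 1630, 989 and 2040 in Sham and 99.5, 138, 378 and 139 in Gel. It fell by 3.16 (SE 0.21, limma adjusted p = 1.1e-48) in all 24 alternatives. Col14a1, a relative of Col12a1, read 58.3, 108, 85.8 and 92.0 against 4.09, 11.8, 12.3 and 42.9 (-2.60, SE 0.32, adjusted p = 3e-13). Col1a1, a chain of the main fibrillar collagen of skin, read 227, 336, 235 and 470 in Sham and 57.2, 37.2, 139 and 164 in Gel, with Gel specimen 1 the lower of the 2. Its change of -1.85 (SE 0.25, adjusted p = 1.1e-09) and that of Col5a1 (-1.84, adjusted p = 1.8e-15) were each lost in 6 of the 24 alternatives, quantile normalization among them. The call for Col5a1 was also lost without Gel specimen 1 region 2 (-1.84, 0.383). Col3a1, the early wound collagen, read 9870, 10700, 7020 and 15100 against 1910, 1190, 4150 and 8660 and was not called (-1.77, SE 0.83, adjusted p = 0.669). One Gel area lay within the Sham range, and limma kept the own SD of 0.826 for this target. It was called lower in 4 of the 24 alternatives: with the replicate block (-1.77, 0.0111), without Gel specimen 1 (-0.78, 9.5e-06), without Gel specimen 2 (-2.76, 1e-77) and without Gel specimen 2 region 2 (-2.04, 3.6e-08). The basement membrane collagen Col4a1 was not called either, at 452 to 758 in Sham and 543 to 895 in Gel (0.23, SE 0.21, adjusted p = 0.793). Col15a1 read 199, 243, 317 and 87.9 against 74.9, 72.7, 155 and 73.6 (-1.10, adjusted p = 0.00097), a call lost without Sham specimen 1 (-0.90, 0.321), Gel specimen 1 (-0.84, 0.159) or Gel specimen 2 region 2 (-0.83, 0.328).

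Enzymes that modify and process collagen gave 6 falls in 17 targets and 0 rises. By comparison, 1.38% of all targets tested and 6.35% of those above background were called lower. The falls went to 2 without either Sham specimen, 1 without Gel specimen 1 and 0 without Gel specimen 2 region 2. Plod2, which hydroxylates lysines so that collagen can be crosslinked, read 138, 108, 139 and 73.6 in Sham and 8.18, 18.2, 100 and 10.2 in Gel. One Gel area thus lay within the Sham range, and the change of -2.41 (SE 0.27, limma adjusted p = 4.9e-16) lost the call without Gel specimen 2 region 2 (-1.61, 0.823). The crosslinking enzyme Loxl2 was called lower at -1.23 (adjusted p = 0.00164), lost without Sham specimen 2 (-1.14, 0.105), Gel specimen 1 (-0.92, 0.28) or Gel specimen 2 region 2 (-0.96, 0.202). The copper handling list, which also holds Loxl2, gave no other call in 14 targets tested.

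Matrix glycoproteins gave 9 falls and 1 rise in 25 targets, with a median of -1.59 over the 14 above background (-2.13 to -0.85 over the alternatives). Called lower were 1.38% of all targets tested and 6.35% of those above background. Fibronectin, Fn1, the provisional matrix on which cells migrate, read 1050, 1220, 726 and 1330 in Sham and 203, 291, 572 and 419 in Gel and fell by 1.61 (SE 0.20, limma adjusted p = 1.6e-12). Thbs2, a matricellular inhibitor of vessel growth, read 763, 670, 474 and 983 against 34.1, 82.0, 106 and 114 and fell by 3.17 (SE 0.22, adjusted p = 4.1e-42). Ccn3, of the CCN family of matricellular proteins, read 270, 319, 241 and 386 against 21.8, 28.8, 8.18 and 36.8 and fell by 3.77 (SE 0.26, adjusted p = 6.5e-44). The microfibril proteins moved with them: Mfap2 read 120, 204, 79.7 and 186 against 1.36, 8.88, 14.3 and 30.7, and Mfap4 58.3, 103, 59.3 and 192 against 6.81, 5.07, 4.09 and 18.4. Their changes were -3.75 (adjusted p = 2.9e-26) and -3.48 (2.4e-27). Every Gel area lay below every Sham area in these 5 genes, which the naming rule required for Thbs2, Ccn3, Mfap2 and Mfap4. Without Gel specimen 1 region 2 the calls for Fn1 (-1.74, 0.0959), Thbs2 (-3.49, 0.171) and Mfap2 (-4.27, 0.437) were lost, and the number of falls in the list went from 9 to 4. Those for Ccn3 and Mfap4 were kept in all 24 alternatives.

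Prg4, lubricin, a large secreted glycoprotein that coats joint and tissue surfaces, was the 1 glycoprotein that rose. It read 18.4, 22.1, 20.4 and 18.4 in Sham, just above background, and 271, 134, 161 and 71.5 in Gel. The Sham areas were nearly equal while the Gel areas spread widely, and the change was 2.80 (SE 0.29, limma adjusted p = 1.4e-19) in all 24 alternatives.

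The small leucine-rich proteoglycans that bind collagen gave 2 falls in 9 targets, Bgn (-2.27, SE 0.23, limma adjusted p = 9.5e-15) and Lum (-1.42, SE 0.19, adjusted p = 8.5e-11). Lum, lumican, read 2210, 2310, 2000 and 2380 in Sham and 692, 485, 1090 and 1290 in Gel. Each of the 2 calls was lost in 4 of the 24 alternatives. Matrix proteases gave 4 falls in 18 targets. Adam12, a membrane protease of activated fibroblasts, read 261, 304, 229 and 231 against 55.9, 56.7, 127 and 47.0 and fell by 1.93 (SE 0.24, adjusted p = 5.7e-13) in all 24 alternatives. The gelatinase Mmp2 (-1.28, adjusted p = 1.4e-07) and its membrane-bound activator Mmp14 (-1.31, 2.2e-08) fell in 22 of the 24. Mmp13, a collagenase, read 113, 120, 135 and 4.09 in Sham and 6.81, 21.1, 22.5 and 8.18 in Gel, so that 1 Sham area lay below all 4 Gel areas. Its change of -2.0 (adjusted p = 1.9e-06) was lost without Sham specimen 1 (-0.92, 0.49), Gel specimen 1 (-1.92, 0.248), Gel specimen 2 (-2.08, 0.114) or Gel specimen 1 region 2 (-2.38, 0.508).

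Fibroblast identity genes gave 4 falls in 20 targets (Itga11, Thy1, Fap and Lrrc17) and 0 rises, with a median of -0.56 over the 10 above background (-0.80 to -0.18 over the alternatives). Beside this, 1.38% of all targets tested and 6.35% of those above background were called lower. Without Gel specimen 1 the falls went to 2. Itga11, the collagen-binding integrin chain of fibroblasts, read 113, 113, 61.3 and 151 in Sham and 8.18, 8.46, 8.18 and 8.18 in Gel, below background in all 4. It fell by 3.51 (SE 0.31, limma adjusted p = 7.7e-26), and the Sham level was at least 6.5-fold above the Gel areas' background. Fap, a surface protease of activated fibroblasts, read 79.7, 44.2, 67.5 and 71.5 against 21.8, 14, 30.7 and 16.4 (-1.65, SE 0.30, adjusted p = 1.3e-05). Thy1, a surface protein of fibroblasts, read 270, 285, 229 and 121 against 72.2, 30.0, 102 and 127 (-1.54, adjusted p = 1.2e-07), a call lost without Gel specimen 1 (-0.91, 0.078). Lrrc17 was lost in 13 of the 23 alternatives that gave it a value, at -0.76 (0.738) without Sham specimen 2, -0.61 (0.806) without Gel specimen 1, -1.18 (0.0653) without Gel specimen 1 region 2 and -1.08 (0.20) without Gel specimen 2 region 2. The summed value of this list was 936 to 1290 in Sham areas and 506 to 895 in Gel areas, without overlap, beside a macrophage sum that overlapped. Whether a smaller share of fibroblasts moved with the falls in contractile and matrix genes was not tested.

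Among secreted signals, 4 of 24 growth factor targets fell and 0 rose, as did 1 of 6 IGF-binding proteins and 1 of 22 chemokines. With 1.38% of all targets tested and 6.35% of those above background called lower, 1 call is no result about a list. Mdk, midkine, a heparin-binding growth factor, read 156, 167, 141 and 182 in Sham and 15, 9.73, 12.3 and 6.13 in Gel, below background in all 4. It fell by 3.84 (SE 0.29, limma adjusted p = 5.8e-37), a Sham level at least 9.9-fold above the Gel areas' background. Inhba, the subunit of activin A, read 190, 201, 125 and 69.5 against 12.3, 39.3, 53.1 and 16.4 (-2.35, SE 0.26, adjusted p = 4.3e-17). The Wnt ligand Wnt5a read 73.6, 61.3, 59.3 and 47.0 against 5.45, 15.2, 42.9 and 8.18 (-2.08, SE 0.30, adjusted p = 1.3e-09). Igfbp4, which binds insulin-like growth factors, read 2080, 2000, 1480 and 842 against 123, 123, 125 and 237 (-3.37, SE 0.21, adjusted p = 1.1e-51). Cxcl12, a chemokine that retains leukocytes and progenitor cells, read 371, 353, 327 and 294 against 54.5, 38.5, 36.8 and 204 (-2.39, SE 0.24, adjusted p = 4.3e-20). C1qtnf3, a secreted relative of C1q, read 135, 155, 92.0 and 81.8 against 1.36, 4.23, 2.04 and 8.18 (-4.71, SE 0.34, adjusted p = 3e-41), with a Sham level at least 6.9-fold above the Gel areas' background. These 6 genes kept their calls in all 24 alternatives and had no overlap of areas. For Mdk, Igfbp4 and C1qtnf3, named among the largest falls, the naming rule required separate areas. Of the growth factor list the receptor Tgfbr1 changed least among those called (-0.90, adjusted p = 0.0319), lost in 11 alternatives, with -0.91 (0.328) without Sham specimen 1, -0.88 (0.313) without Sham specimen 2, -0.80 (0.314) without Gel specimen 1, -0.77 (0.159) without the area of lowest total and -0.71 (0.541) without Gel specimen 2 region 2. Vegfa, the main vessel growth factor, was above background in 1 area of each group and was not called (0.25, SE 0.46, adjusted p = 0.928), with -0.09, -0.49 and -0.01 without Sham specimen 1, Gel specimen 1 and the area of lowest total.

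Cytoskeletal genes gave 8 falls in 18 targets and 0 rises. The closer comparison is the 6.35% called lower of targets with a mean above background, against 1.38% of all targets tested. All 16 members above background were lower in Gel, with a median of -0.75 against -0.27 over all 3794 such targets. The median of the list ran from -0.96 to -0.14 over the alternatives. In the proteasome list, which had no call, all 13 members above background were lower too, with a median of -0.3. Tmsb10, a thymosin that binds free actin, read 2750, 3320, 2930 and 3220 in Sham and 790, 669, 1410 and 938 in Gel and fell by 1.73 (SE 0.19, limma adjusted p = 3.1e-17) in all 24 alternatives. Vim, the intermediate filament protein of mesenchymal cells, read 1990, 1990, 1590 and 1590 against 799, 803, 1450 and 746 (-0.96, SE 0.19, adjusted p = 0.00011). That call was lost without Sham specimen 1 (-0.80, 0.353) or Gel specimen 2 region 2 (-0.72, 0.486), and with quantile normalization the difference was -0.13. Flna and Myh9, a filamin and a non-muscle myosin, fell by 1.22 and 1.18, and lost their calls without Sham specimen 2 (-1.05, 0.0847) and without Gel specimen 2 region 2 (-0.98, 0.116). Without that last area the number of falls in the list went from 8 to 2, and without either Sham specimen to 3.

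Of 21 endothelial targets 2 rose and 0 fell, with a median of 0.19 over the 9 above background. Gja5, connexin 40 of arterial endothelium, read 6.13, 2.45, 2.04 and 12.3 in Sham, all below background, and 42.2, 33.4, 45 and 8.18 in Gel. The last of these Gel areas lay within the Sham range and below background. Gja5 rose by 2.33 (SE 0.46, limma adjusted p = 6.3e-05). That call was lost with counts thinned to the lowest total (1.84, 0.0699), and also without Gel specimen 1 (1.87). Apln, the peptide apelin of sprouting vessels, read 3.07, 17.2, 10.2 and 4.09 against 21.8, 22.0, 24.5 and 20.4 (1.52, SE 0.40, adjusted p = 0.0129). It lost the call without any 1 specimen: 1.62 (0.0507) and 1.43 (0.113) without Sham specimens 1 and 2, 1.54 (0.236) and 1.51 (0.167) without Gel specimens 1 and 2. Without the area of lowest total it was 0.98 (0.318). Pecam1 was above background in no area. Rgs5, a marker of pericytes, the cells that wrap small vessels, read 120, 155, 102 and 100 in Sham and 8.18, 8.88, 14.3 and 59.3 in Gel and fell by 2.80 (SE 0.30, adjusted p = 9.7e-18). It was the 1 call among 8 pericyte targets, and was lost in 2 of the 24 alternatives.

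The remaining rises among the largest were in genes of mixed function. Ebi3, a subunit shared by the cytokines IL-27 and IL-35, read 21.5, 7.36, 20.4 and 10.2 in Sham and 58.6, 74.0, 42.9 and 63.4 in Gel and rose by 2.03 (SE 0.31, limma adjusted p = 8.7e-09). Zbtb16, a transcription factor that glucocorticoids induce, read 3.07, 9.81, 6.13 and 12.3 against 24.5, 31.7, 24.5 and 51.1 (2.02, SE 0.37, adjusted p = 1.4e-05). Ebi3 was kept in all 24 alternatives and Zbtb16 in the 23 that gave it a value, and Zbtb16 was the 1 call in 14 glucocorticoid-responsive targets. Entpd2, a nucleotide-cleaving surface enzyme, read 15.3, 2.45, 4.09 and 4.09 against 32.7, 26.2, 20.4 and 22.5 (2.08, adjusted p = 0.00028), lost without Gel specimen 1 (1.86, 0.125). Rasa4, a regulator of Ras, rose by 1.67 (adjusted p = 0.00087), lost without Gel specimen 2 (1.22, 0.314). Steap1, a membrane protein of the STEAP family, rose by 1.51 (adjusted p = 0.00032), lost without Sham specimen 1 (1.05) or Gel specimen 1 (1.39). Fabp4, a fatty acid carrier of adipocytes, vessels and macrophages, read 30.7, 73.6, 51.1 and 47.0 in Sham and 196, 24.5, 157 and 356 in Gel, the Gel areas lying on both sides of the Sham range. Its change of 1.40 (adjusted p = 2.2e-05) was lost without Gel specimen 2 (0.53, 0.597) or its region 2 (1.10, 0.0572), and it was the 1 call among 13 adipocyte targets. Ifi27l2a, an interferon-induced gene and the 1 call in 20 interferon targets, rose by 1.33 (adjusted p = 7.6e-05), lost without Gel specimen 2 (0.97, 0.0927) or its region 2 (0.98, 0.16).

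Positional transcription factors, which keep a memory of where in the body a fibroblast arose, gave 2 rises and 1 fall in 20 targets. Lhx8 read 3.07, 2.45, 4.09 and 4.09 in Sham and 19.1, 21.6, 12.3 and 18.4 in Gel (2.08, SE 0.46, limma adjusted p = 0.00079), and Zic1 6.13, 2.45, 4.09 and 2.04 against 13.6, 16.5, 12.3 and 18.4 (1.86, SE 0.45, adjusted p = 0.0041). Both were below background in all Sham areas, where Lhx8 stood at 1, 1, 2 and 2 counts and Zic1 at 2, 1, 2 and 1. Of the 4 Gel areas, 3 were above background for Lhx8 and 2 for Zic1. With counts thinned to the lowest total both calls were lost, at 0.98 (limma adjusted p = 0.581) and 1.63 (0.161). Hoxc8 went the other way, at 27.6, 39.2, 20.4 and 28.6 against 5.45, 12.3, 14.3 and 6.13 (-1.57, SE 0.37, adjusted p = 0.0028). The calls were lost without Gel specimen 1 in all 3, at 1.88 (0.139), 1.86 (0.123) and -1.48 (0.0926). Zic1 was also lost without Sham specimen 2 (1.69, 0.0596) or Gel specimen 2 (1.86, 0.0816), and Hoxc8 without Sham specimen 1 (-1.36, 0.226) or Gel specimen 2 region 2 (-1.30, 0.0806). The labels used here do not give the body site of each wound.

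The series title names epigenetic change and inflammation. Of 27 histone and DNA modifying enzymes tested, 1 fell and 0 rose: the lysine demethylase Kdm1a read 73.6, 51.5, 30.7 and 65.4 in Sham and 21.8, 16.5, 26.6 and 24.5 in Gel (-1.22, SE 0.31, limma adjusted p = 0.00848). That call was lost without Sham specimen 1 (-0.99, 0.42), Gel specimen 1 (-1.01, 0.342), the area of lowest total (-1.09, 0.0574) or Gel specimen 2 region 2 (-1.19, 0.0603). Over all targets tested 1.38% were called lower, and over those above background 6.35%, so 1 call says little about a list. Immediate early genes gave 2 rises in 20 targets (Zfp36 1.13, Fosb 1.37), respiratory chain genes 2 falls in 19 (Atp5a1 -0.93, Uqcrb -0.96), antioxidant genes 1 fall in 22 (Prdx2 -0.90) and heat shock genes 1 fall in 14 (Dnajb1 -1.09). Each of these calls was lost in 9 to 14 of the 24 alternatives (23 for Fosb). Without Sham specimen 1 those for Zfp36 (1.01, 0.309), Atp5a1 (-0.85, 0.408), Uqcrb (-0.79, 0.591), Prdx2 (-0.93, 0.33) and Dnajb1 (-0.91, 0.50) were among the losses, and without Sham specimen 2 that for Fosb (0.33, 0.932). The lists of neutrophil, T and NK cell, B and plasma cell, mast cell, keratinocyte, skeletal muscle, Schwann cell, glycolysis, hypoxia, unfolded protein response, proliferation and proteasome genes gave 0 calls by limma. Together with the 2 macrophage lists without a call these held 201 targets, of which 22 had an unadjusted p under 0.05, and edgeR called 3 and DESeq2 0.

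**Figure D3:**
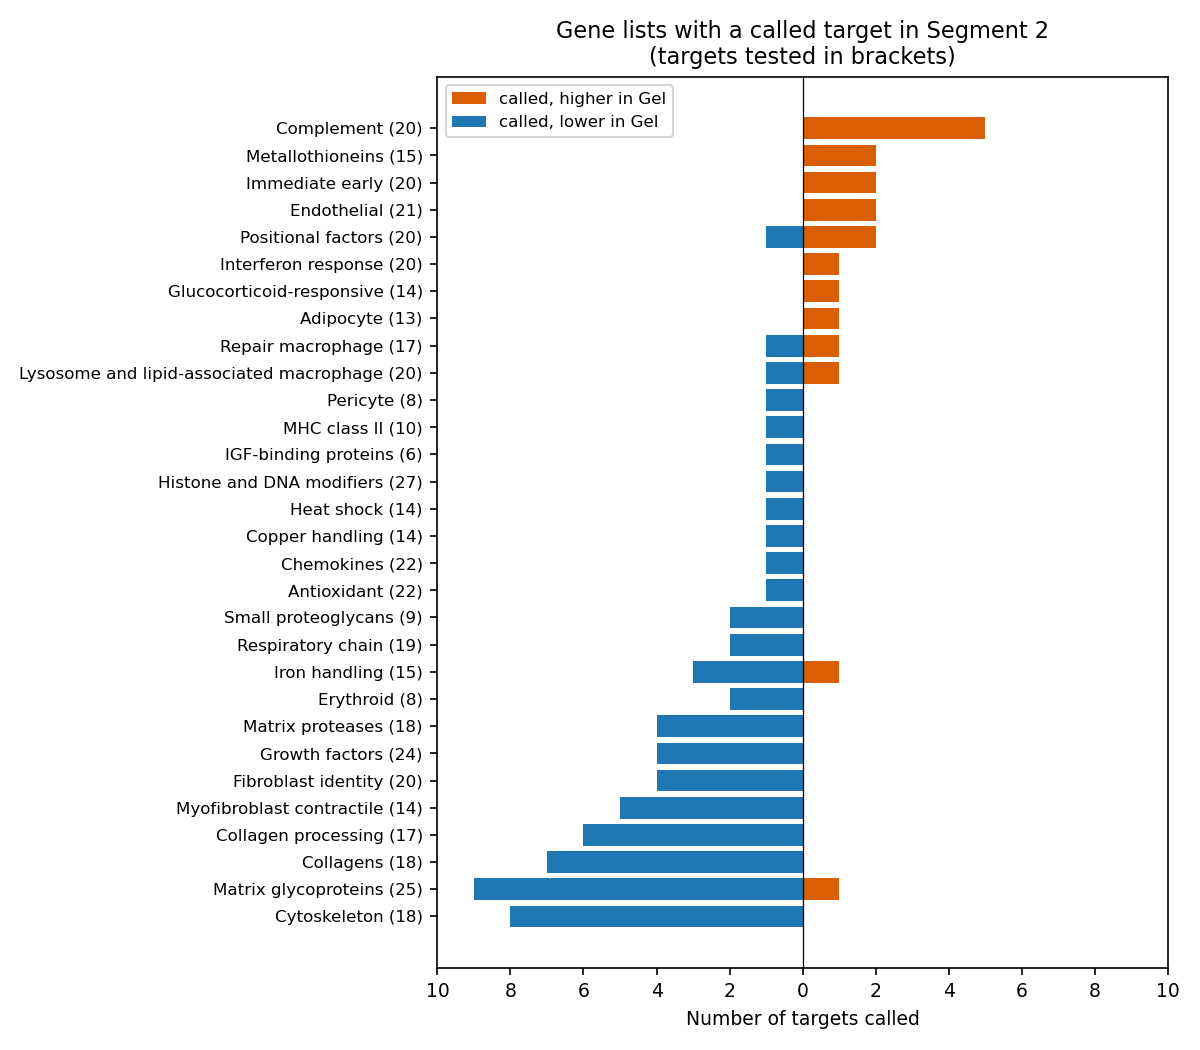
Horizontal bars count the targets called higher (orange, to the right) and lower (blue, to the left) in Gel for each of the 30 gene lists that had a called target; the number of targets tested is in brackets. Complement has the most rises, 5 of 20. The lists with the most falls are matrix glycoproteins (9 of 25), cytoskeleton (8 of 18), collagens (7 of 18), collagen processing (6 of 17) and contractile genes (5 of 14). Over all targets tested 0.256% rose and 1.38% fell, and over those with a mean above background 0.554% and 6.35%. The lists were chosen with earlier results of these data known.

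Segment 1 areas of the same wounds allowed a test of whether the Gel against Sham change differed between the segments. The 2 areas of each specimen and segment were averaged, and limma with the specimen as a block called 12 of 19125 targets (0.0627%), all with the more negative change in Segment 2. Acta2 differed by -4.04 in Segment 2 and -2.81 in Segment 1, a difference of -1.23 (SE 0.19, limma adjusted p = 0.0003). Igfbp4 fell by 3.37 in Segment 2 against -2.49 in Segment 1, a difference of -0.88 (SE 0.16, adjusted p = 0.00533). The next by adjusted p was Vim, at -0.59 (SE 0.11, adjusted p = 0.0078). Actn1 (-1.17), Inhba (-1.14), Wnt5a (-1.36), Mmp13 (-1.42), Col15a1 (-0.96), Mmp14 (-0.59) and Tmsb10 (-0.53) completed the named calls. Prrx1 (-0.93) and Actg1 (-0.60), which fall outside the rule for named genes, were the other two. All 12 were lost without Sham specimen 1 or without Sham specimen 2, and with limma run without trend and robust settings. Leaving out Gel specimen 1 or Gel specimen 2 lost some of the 12 as well. Quantile normalization called 14 targets, only 5 of them among the 12. Acta2 (-1.15, limma adjusted p = 0.937) and Vim (-0.18, 0.963) were lost there. With the odorant receptor median subtracted there were 24 calls, 10 of them among the 12, and Acta2 was again lost (-1.68, 0.879). The changes in Segment 2 and Segment 1 were 4.83 and 4.52 for Mt2, 3.58 and 2.95 for C3, -4.82 and -5.68 for H2-Ab1, and -4.93 and -5.37 for Hba-a1, with no difference called, which does not show that they were equal. The segments come from the same regions of the same specimens, so the 2 sets of changes are not independent.

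**Figure D4:**
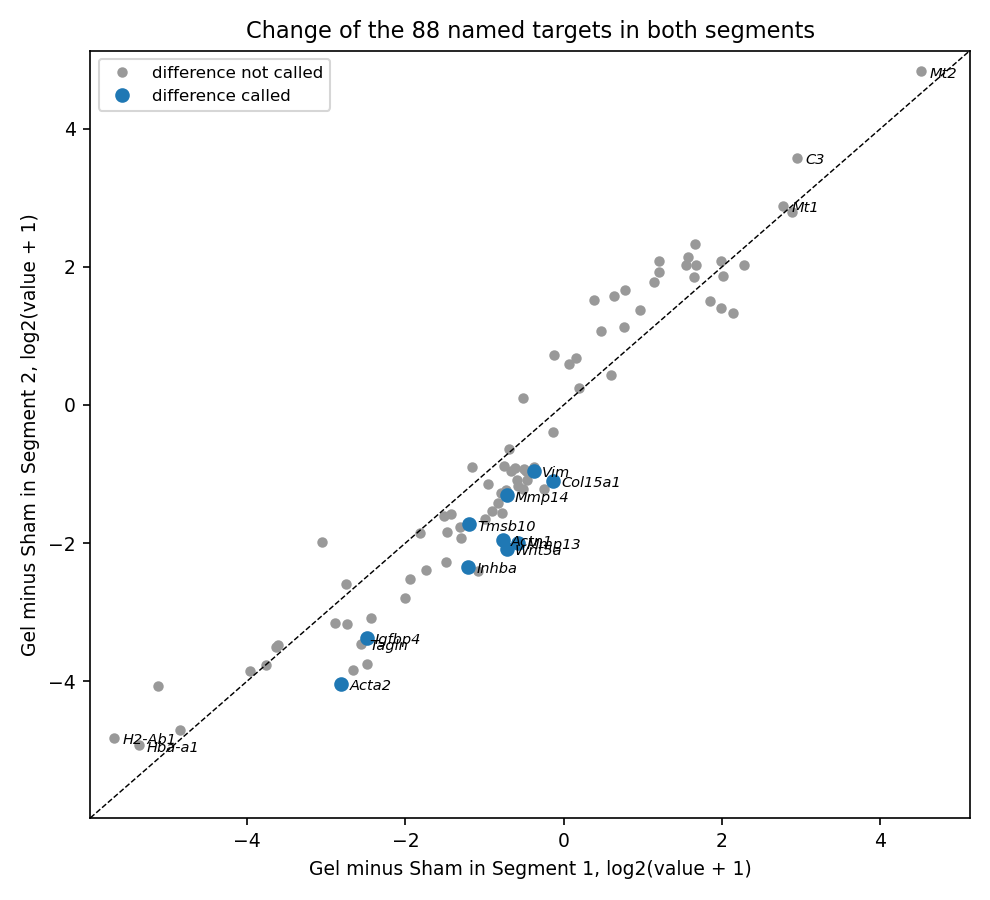
Each point is 1 of the 88 named targets, with its Gel minus Sham difference in Segment 1 on the horizontal axis and in Segment 2 on the vertical axis, both as log2(value + 1), and a dashed line of equality. The 10 blue points, Acta2 (-1.23) and Igfbp4 (-0.88) among them, are the named targets whose difference between segments was called, and all lie below the line.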

How the data were processed

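Per the labels' protocols, sections of formalin-fixed, paraffin-embedded skin were probed with GeoMx RNA detection probes and areas positive by immunofluorescence were collected. The authors deposited 1 signal value per target and area, for 19962 targets and 1 negative probe. How these values were counted, filtered and scaled is not given in the sources used here. Their 75th percentiles were nearly equal across areas, the mark of Q3 scaling. Dividing by the lowest value of an area gave whole numbers (tolerance 0.01) for at least 99.98% of targets, and counts so recovered fed the alternatives. Target symbols are of mouse style, and 16665 match a rat GRCr8 symbol.

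The scale was log2(value + 1), on which changes of low targets are understated. A target entered if 2 or more of the 8 areas exceeded the negative probe there (19125 did). After averaging both areas of each specimen, limma 3.58.1 (R 4.3.3, trend and robust) was run over 6 specimens of 3 treatments, with Benjamini-Hochberg adjustment and a threshold of 0.05. Residual spread thus includes CuNZ@Gel specimens. The segment test averaged both areas of each specimen and segment (12 values) and kept the specimen as a block. Areas of a specimen are not replicates, and the specimens number 2 a group. edgeR 4.0.16 and DESeq2 1.42.0 on recovered counts were alternatives. The fits were also run on simulated data, drawn with the same added spread for every target and none shared within a specimen. Such data cannot show whether a pooled spread suits the real areas.

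Named targets were the 12 largest rises and 12 largest falls with separate areas and the higher group above background, up to 4 called members of each of 44 lists, 20 targets taken whatever their values, and the leading segment differences. The members and the lists were chosen with earlier results of these data known. Other genes named from a list are its members, given with its counts. A level given as at least so many times background compares the mean of the higher group with the odorant receptor background of the lower group's areas.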

Additional observations from a re-analysis of the deposited data

Results flagged for a closer look

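In 9 of 176 groups of 4 areas that were checked among the named targets, 1 area stood far from the other 3. Chance gives about 1 in 20 such groups. Gel specimen 2 region 2 was the far area for Igfbp4 (237), Hbb-b2 (12.3) and Fth1 (1030). Gel specimen 2 region 1 was the far area for Loxl2 (49.1), Vim (1450) and Col15a1 (155), each at the high end. Among Sham areas, specimen 2 region 1 was low for Tpm1 (196) and specimen 2 region 2 was low for Mmp13 (4.09). Itga11 at 8.46 in Gel specimen 1 region 2 met the criterion only because the other 3 Gel areas had equal values.

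The change between Gel and Sham differed between the segments for 12 targets, by limma's test of the difference. Each was more negative in Segment 2: Mmp13 by -1.42, Wnt5a by -1.36, Acta2 by -1.23, Actn1 by -1.17, Inhba by -1.14, Col15a1 by -0.96, Prrx1 by -0.93, Igfbp4 by -0.88, Actg1 by -0.60, Vim by -0.59, Mmp14 by -0.59 and Tmsb10 by -0.53.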

How the results depend on the processing

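Of the 312 calls between Gel and Sham, the count moved by more than 1.5 times when counts were thinned to the lowest total (186), with limma without trend and robust settings (88), with DESeq2 (124), and in limma with the own spread of each target (0, with 1591 at an unadjusted p under 0.05; edgeR called 286). The last was added after seeing the data, as was leaving out Gel specimen 2 region 2 (170). Leaving out 1 specimen gave 148 to 314 calls: 148 without Sham specimen 1, 177 without Sham specimen 2, 168 without Gel specimen 1 and 314 without Gel specimen 2. Of the 12 segment differences 0 were called without trend and robust settings (880 targets at an unadjusted p under 0.05). Quantile normalization called 14 targets, 5 of them among the 12, and the fit to Sham and Gel only called 19, with all 12. With the odorant median subtracted (added after seeing the data) there were 24, with 10 of the 12. Leaving out 1 specimen lost some or all of the 12. The correlations of deviations between same-numbered specimens were 0 to 0.02. With 2 specimens a treatment, these values cannot tell whether same-numbered specimens were handled together. With the replicate block 314 targets were called, 309 of them shared. Signs turned for Fth1 (0.09, quantile normalization), Cd68 (-0.14 without Sham specimen 2, to 0.34 without Sham specimen 1), Il1b (0.27 without Gel specimen 1, to -1.06 without Gel specimen 2) and Vegfa (-0.09 without Sham specimen 1, -0.49 without Gel specimen 1, -0.01 without the area of lowest total, to 0.99 without Gel specimen 2). Of the 79 named calls, 25 were kept under all settings that pooled the spread and gave them a value (24, and 23 for Zbtb16 and Ms4a4a), 16 were lost under 1 or 2 and 38 under 3 or more. The cause of these losses was not tested, beyond the fewer samples or areas where some were left out.

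Depth limits low targets: 26 of the 49 higher calls lay below background in all Sham areas. Higher calls numbered 48 with a common floor of 1 count and 15 with counts thinned to the lowest total. Thinning lost 22 of the 79 named calls. Among them were the rises of Cfb (1.06, limma adjusted p = 0.577), F13a1 (1.65, 0.15), Entpd2 (1.79, 0.0804), Rasa4 (1.55, 0.122) and Gja5 (1.84, 0.0699). The rises of Lhx8, Zic1, Apln, Steap1, Ifi27l2a, Zfp36 and Fosb were lost as well.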

Other observations

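The called targets given here belong to no list, and they were chosen after their values were seen. Slpi, a secreted inhibitor of leukocyte proteases, read 98.1, 123, 151 and 110 in Sham and 890, 1390, 1110 and 137 in Gel, so that 3 Gel areas were high and Gel specimen 2 region 2 lay within the Sham range (log2 change 2.46, limma adjusted p = 1.3e-14). Siglecf, a sialic acid receptor of eosinophils and some macrophages, read 12.3, 2.45, 8.18 and 10.2 in Sham and 19.1, 33.8, 18.4 and 16.4 in Gel (1.41, adjusted p = 0.0295). Sfrp2, a secreted Wnt antagonist, read 785, 677, 333 and 1140 against 138, 69.8, 112 and 196 (-2.46, adjusted p = 2.4e-25). Its relative Sfrp4 read 59.3 to 161 against 15 to 45 (-1.97, adjusted p = 8e-10), and the ligand Wnt4 read 36.8 to 51.1 against 4.09 to 12.3 (-2.28, adjusted p = 3.1e-08). The heparan sulphate proteoglycan Gpc1 read 144, 150, 153 and 188 against 13.6, 21.1, 34.7 and 12.3 (-3.0, adjusted p = 1.3e-24). Cdh11, the cadherin that joins fibroblasts, read 51.5 to 100 against 5.45 to 22.5 (-2.65, adjusted p = 1.2e-14), and Il33, an alarmin of stromal cells, 77.7 to 145 against 13.6 to 45 (-2.08, adjusted p = 3e-12).

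H2-Ab1 read 128 to 190 in Sham and 2.04 to 10.2 in Gel, and 3.50 to 6.81 in the 4 CuNZ@Gel Segment 2 areas, while H2-Eb1 read 76.0 to 133, 62.2 to 262 and 99.9 to 244. C1qb read 20.4 to 119 in Sham, 104 to 190 in Gel and 1.36 to 15.3 in CuNZ@Gel, while C1qc read 40.9 to 298, 149 to 260 and 168 to 223. Whether single probes read these rat transcripts differently between animals was not tested.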
